A study of Rattus norvegicus with 3 samples.

Results

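The transcripts of enzymes that attach glutathione, glucuronic acid or sulfate to other molecules were followed in rat kidney after administration of thallium (Tl), a heavy metal. The members were the probe sets whose single gene symbol in the platform annotation begins with the family names of the glutathione S-transferases (GSTs; Gsta, Gstk, Gstm, Gsto, Gstp, Gsts, Gstt or Gstz), the microsomal glutathione S-transferases (Mgst), the UDP-glucuronosyltransferases (UGTs; Ugt1, Ugt2, Ugt3 or Ugt8) or the sulfotransferases (Sult). This rule found 43 genes, each with 1 probe set, among 15037 named genes (15049 probe sets with a gene symbol, in a table of 24834 probe sets). Total RNA of the kidney was measured on 3 Clariom S rat arrays, 1 for each of the Tl 5 days, Tl 2 days and control groups. The study's methods describe young male Wistar rats that were given thallium sulfate or, as controls, double distilled water intraperitoneally, and whose kidneys were excised 5 or 2 days later. The study's figure legends state a single dose, whereas the labels state daily injections for 2 or 5 days, and the dose is 30 mg/kg in the series design and 40 mg/kg in the sample labels. Rats that died before the planned time were counted by the study as part of the Tl 5 days group, and the number of rats behind each array is not given in the sources used here. With 1 array per group the spread between rats is not known, so no difference was tested, and the precision of every value is limited by this number of arrays.

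Conjugation is the second phase of the metabolism of drugs, and it also acts on endogenous molecules. GSTs join reactive compounds to the thiol of glutathione, and the conjugate is then trimmed by peptidases and acetylated to a mercapturic acid, a route for which the kidney is known. UGTs transfer glucuronic acid from UDP-glucuronic acid, and sulfotransferases transfer sulfate from the activated sulfate PAPS. Many GST genes are known targets of Nrf2, a transcription factor that responds to oxidants and electrophiles. Tl binds sulfhydryl groups, and the proximal tubule of the kidney is known as a site of high conjugating activity.

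The families were not covered completely. RefSeq lists 68 protein-coding genes with such symbols, and 25 of them had no named probe set and are not analysed here, among them 8 genes of the UGT1A locus, Gsta2, Gsta5, Gsto1, Gsto2, Gstt3, Ugt2b15 and Sult1c2. All values below are log2 signals as deposited by the authors. A value was called dim where it lay below 6.83, the 95th percentile of 63 ERCC probe sets, which are spike-in controls and had that same percentile on each of the 3 arrays. By this limit 23 members were dim on all 3 arrays, 1 member (Gstm7) was dim on 1 array, and 19 members were dim on no array. The ERCC values give a fixed level rather than a background measured on each array, and the medians of the negative control probe sets were close to it (6.62, 6.42 and 6.56 on the Tl 5 days, Tl 2 days and control arrays). Levels of different probe sets were not compared with each other.

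Kidney is the tissue in the sample titles, but spleen is entered as the source. Of 16 marker genes of the proximal tubule, 1 was dim on each array, and all 6 listed genes of T cells and both measured genes of B cells were dim on all arrays. The proximal tubule markers differed between the Tl 5 days and control arrays by a median of -0.04 (5 of them over 2-fold higher, 4 lower), and between the Tl 2 days and control arrays by -0.51 (0 higher, 5 lower). All 6 markers of the thick ascending limb were over 2-fold lower on both Tl arrays, with medians of -3.28 at 5 days and -2.56 at 2 days. Of 7 macrophage markers 3 were over 2-fold higher at 5 days and 4 at 2 days (medians of 0.97 and 1.16), and of 8 markers of injured tubule 7 were higher at each time (medians of 4.19 and 4.40). On the control array 5 of these macrophage markers and 4 of these markers of injured tubule were dim, and on each Tl array 2 and 1. The collecting duct markers had medians of -1.82 and -1.40, and those of endothelium -1.21 and -0.27. Of all named probe sets, 5.38% were over 2-fold higher and 4.86% lower than control at 5 days, and 6.03% and 4.64% at 2 days. The part of these marker shifts in the results below was not tested, and in whole tissue fewer cells of a type and less RNA per cell cannot be told apart.

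At 5 days, 5 of the 43 members exceeded control by more than 2-fold (11.6%), while 5.38% of all named probe sets did, and 1 member lay below control by that much (2.33%, against 4.86% of all named probe sets). At 2 days, 5 members exceeded control by more than 2-fold (11.6%, against 6.03%) and 4 lay below it (9.3%, against 4.64%). In the direct comparison of the Tl arrays, 1 member was over 2-fold higher at 5 days (2.33%, against 2.21% of all named probe sets) and 2 were lower (4.65%, against 3.07%). The median difference of the members was 0 for Tl 5 days minus control and -0.08 for Tl 2 days minus control, where the median over all named probe sets was 0 in both. Both comparisons used the same control array. The 1153 probe sets marked as negative controls by their identifiers passed the limit too, with 10.9% above and 7.89% below control at 5 days and 8.33% above and 11.6% below at 2 days. These shares of probe sets that stand for no gene were above those of all named probe sets in both directions at both times. With both sets limited to probe sets not dim on at least 1 of the 2 arrays, this did not hold for higher values at 2 days. There 8.16% of the negative controls and 9.62% of the named probe sets were higher, and 12.8% and 7.13% were lower. At 5 days 11.8% and 8.95% were higher and 8.6% and 7.51% lower. Since probe sets that stand for no gene passed the limit at such shares, the count of members is not a result in itself. The values of single enzymes follow.

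**Figure D1:**
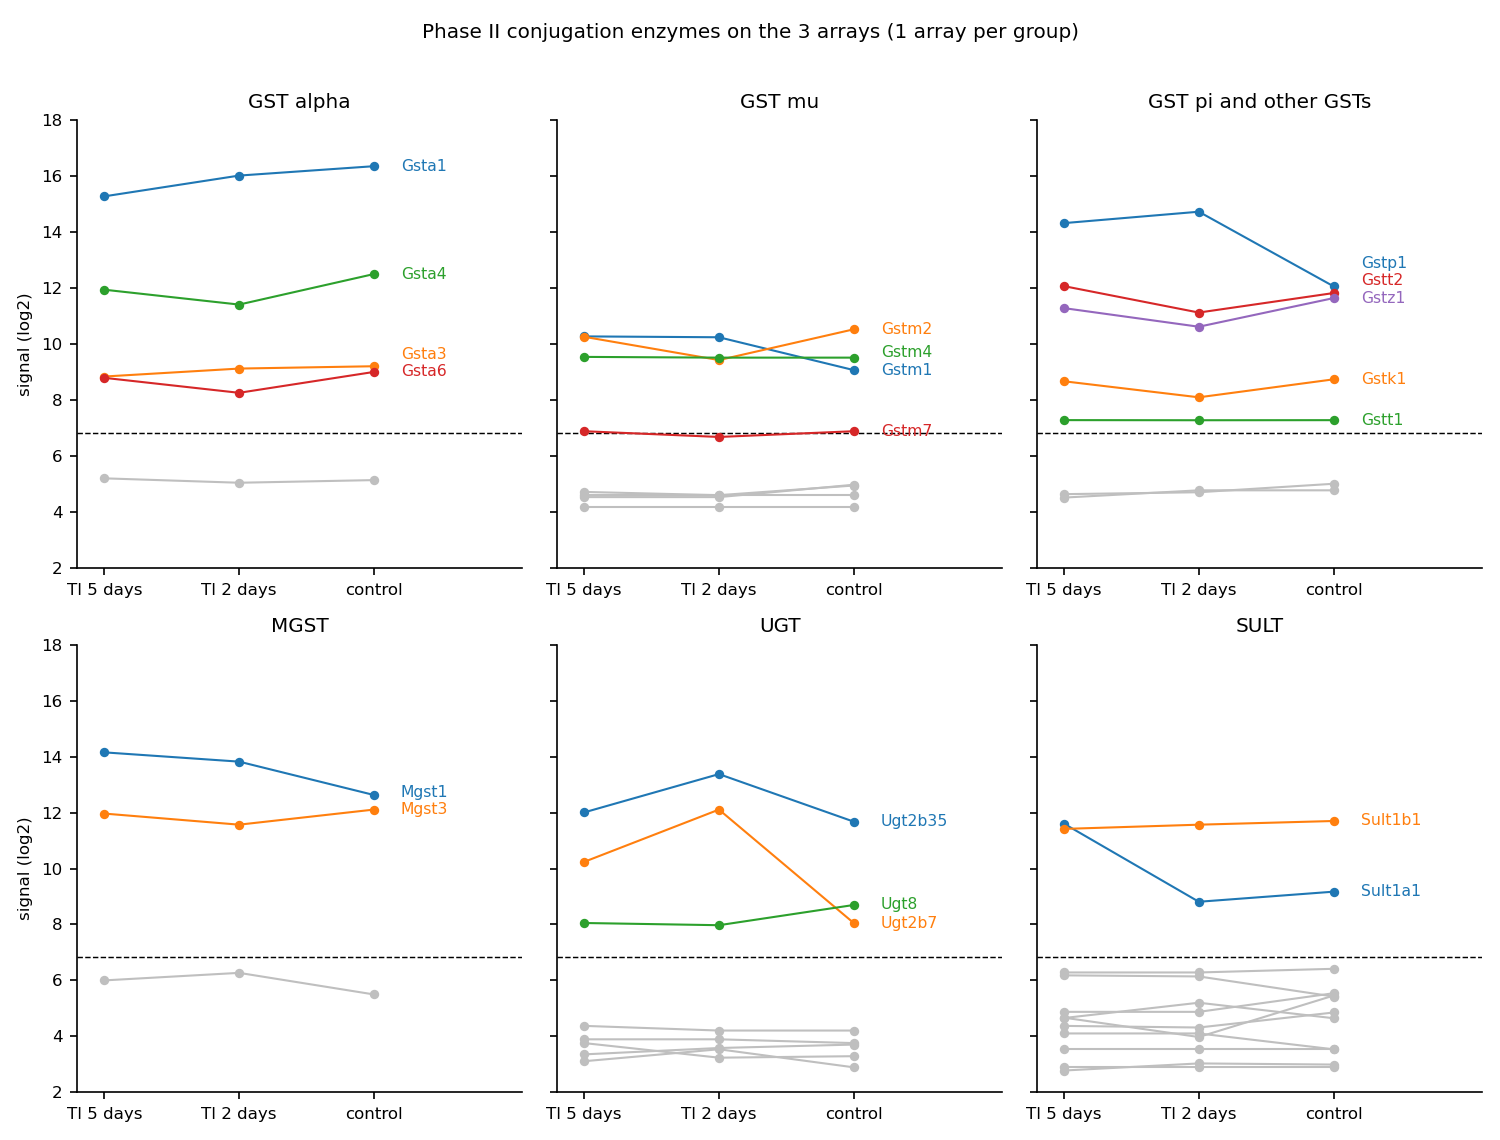
Signal (log2) of each of the 43 members on the Tl 5 days, Tl 2 days and control arrays, by enzyme class. Coloured lines are members that reached the dashed line at 6.83 (95th percentile of the ERCC probe sets) on at least 1 array, grey lines are the 23 members dim on all arrays, and each point is 1 array with no error; Gstp1, Mgst1 and Ugt2b7 lie above their control point on both Tl arrays, and Sult1a1 only on the Tl 5 days array.

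Gstp1, the pi class GST and a classical marker of altered cell foci in rat liver, had log2 values of 14.32 on the Tl 5 days array, 14.73 on the Tl 2 days array and 12.06 on the control array. Both Tl arrays lay above the control array, by 2.26 (4.79-fold) and 2.67 (6.35-fold), and the Tl 5 days array differed from the Tl 2 days array by -0.41. Its neighbour on chromosome 1, Gstp3, the other pi gene measured, was dim with 4.52, 4.78 and 4.78 on the Tl 5 days, Tl 2 days and control arrays. The 250 bases before the annotated start of Gstp1 (RefSeq, GRCr8, minus strand, chr1:210769706-210769955) are shown because they hold the core of an antioxidant response element, the DNA motif that Nrf2 is known to bind. Capitals mark TGACNNNGC, whose first base is at -61 from the start on the strand of the gene, and the core of a xenobiotic response element, GCGTG, which is read on the opposite strand and begins at -238.
Gstp1: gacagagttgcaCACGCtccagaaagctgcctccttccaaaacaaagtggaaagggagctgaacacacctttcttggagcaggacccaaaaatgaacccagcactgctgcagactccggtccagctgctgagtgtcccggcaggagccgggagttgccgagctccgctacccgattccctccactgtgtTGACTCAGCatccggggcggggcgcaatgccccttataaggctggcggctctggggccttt
Such windows were given for 38 of the 43 members (39 windows). Searched on both strands, TGACNNNGC was in 12.8% of the windows of members and in 10.1% of all 33469 windows of the genome, and GCGTG was in 23.1% and 25.9% of them. The third motif searched, that of Hnf1, was in 2 windows of members (5.13%), those of the dim genes Sult2a2 and Sult2a6, and in 0.323% of all windows. A match is a description of the letters and not evidence of binding.

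Mgst1, a membrane enzyme of the endoplasmic reticulum and the outer mitochondrial membrane with transferase and peroxidase activity, had log2 values of 14.15 on the Tl 5 days array, 13.82 on the Tl 2 days array and 12.63 on the control array. The differences from the control array were 1.52 (2.88-fold) and 1.19 (2.29-fold). Mgst3, of the same membrane family, differed by -0.14 and -0.54, with values of 11.96, 11.57 and 12.11 on the Tl 5 days, Tl 2 days and control arrays. Mgst2, which can make leukotriene C4, was dim on all arrays.

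The mu class went both ways. Gstm1 had log2 values of 10.28 on the Tl 5 days array, 10.24 on the Tl 2 days array and 9.07 on the control array, and was higher than control by 1.20 (2.30-fold) and 1.17 (2.26-fold). Gstm2, its direct neighbour in the mu gene cluster of chromosome 2, had 10.26, 9.43 and 10.53 on the same arrays. On the Tl 2 days array it was lower than control by 2.14-fold (a log2 difference of -1.10), and on the Tl 5 days array the difference was -0.27. Gstm4, the neighbour of Gstm1 on the other side, had 9.54, 9.52 and 9.52. Gstm7 lay at the limit of a dim signal with 6.89, 6.68 and 6.89, and Gstm3, Gstm5, Gstm6 and Gstm6l were dim on all arrays. In the windows of 250 bases before the starts of Gstm1 and Gstm2 none of the 3 motifs was found. Mu genes are similar in sequence, and how far probe sets of one gene also measure another was not tested.

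In the alpha class 4 of 5 members were below control on the Tl 5 days array and all 5 on the Tl 2 days array, most of them by less than 2-fold. Of all 15049 named probe sets, 6071 were below control on the Tl 5 days array and 6130 on the Tl 2 days array. The 5 members include Gsta4l1, which was dim on all arrays (differences of 0.06 and -0.09). Gsta1, a subunit of the alpha GSTs that RefSeq also lists under the older names Gsta3 and Gsta5, had log2 values of 15.28 on the Tl 5 days array, 16.02 on the Tl 2 days array and 16.36 on the control array. The differences from control were -1.08 (2.11-fold lower) and -0.34, so the lower value past 2-fold was that of the Tl 5 days array. For Gsta4, which conjugates 4-hydroxynonenal, a product of lipid peroxidation, the lower value was that of the Tl 2 days array instead. Its log2 values were 11.94, 11.41 and 12.50 on the Tl 5 days, Tl 2 days and control arrays, with differences of -0.56 and -1.09 (2.13-fold lower) from control. Gsta3 had differences of -0.37 and -0.08 and Gsta6 of -0.21 and -0.75, while Gsta4l1 was dim. The median difference of the class was -0.37 between Tl 5 days and control and -0.34 between Tl 2 days and control.

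Gstz1, the zeta enzyme that isomerizes maleylacetoacetate in the degradation of tyrosine, had log2 values of 11.29 on the Tl 5 days array, 10.62 on the Tl 2 days array and 11.64 on the control array. The difference from control was -0.36 on the Tl 5 days array and, close to the 2-fold limit, -1.02 (2.03-fold lower) on the Tl 2 days array. The theta enzyme Gstt2 had 12.07, 11.13 and 11.82 on these arrays, and Gstk1, the kappa enzyme of mitochondria and peroxisomes, had 8.67, 8.10 and 8.74. For Gstz1, Gstt2 and Gstk1 the Tl 2 days array held the lowest of the 3 values, and Gstt1 had 7.28 on every array. The window of Gstz1 (RefSeq, GRCr8, plus strand, chr6:112525356-112525605) is shown because, like that of Gstp1, it holds the core TGACNNNGC. Here the core is on the opposite strand with its first letter in the window at -231 (capitals). A window of Gsta3 and those of Gstm5 and Gstm7 hold it as well. Whether it bears on the values of any of these genes was not tested.
Gstz1: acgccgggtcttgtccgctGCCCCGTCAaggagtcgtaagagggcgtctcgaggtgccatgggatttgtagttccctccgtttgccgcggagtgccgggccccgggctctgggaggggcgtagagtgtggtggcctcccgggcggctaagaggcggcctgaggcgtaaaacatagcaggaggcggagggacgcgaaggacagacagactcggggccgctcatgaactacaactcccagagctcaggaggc

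**Figure D2:**
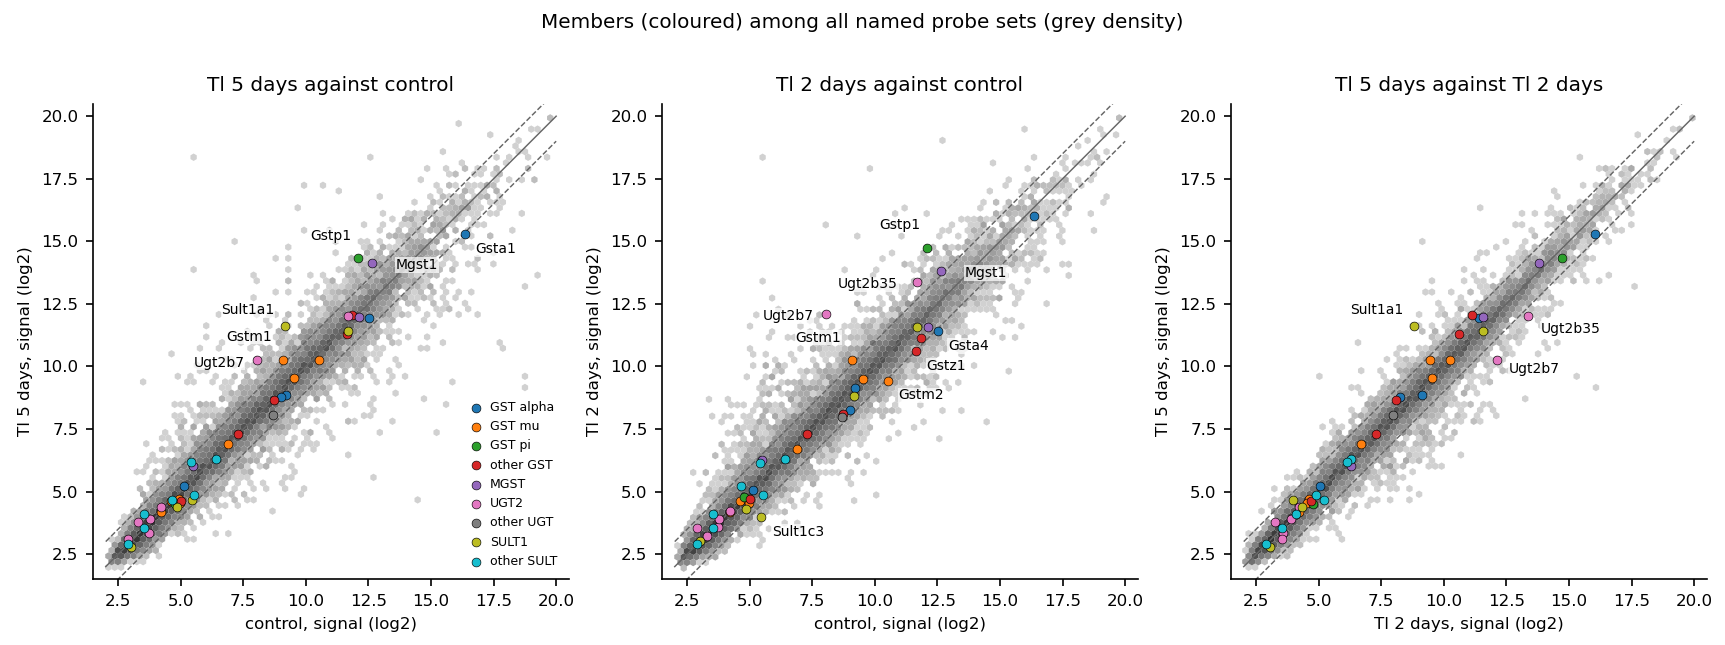
Signal (log2) of all 15049 named probe sets (grey, darker where more lie together) and of the 43 members (coloured by class) on the Tl 5 days array against control, the Tl 2 days array against control, and the Tl 5 days array against the Tl 2 days array. The solid line marks equal values and the dashed lines 2-fold; the members past a dashed line are named, with Ugt2b7 farthest from equality against control (4.05, Tl 2 days) and Sult1a1 between the Tl groups (2.79).

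UGTs of family 2, which glucuronidate steroids, bile acids and drugs, held the member with the largest difference from the control array. Ugt2b7 had log2 values of 10.24 on the Tl 5 days array, 12.11 on the Tl 2 days array and 8.05 on the control array. It was 16.6-fold higher than control on the Tl 2 days array (4.05) and 4.55-fold higher on the Tl 5 days array (2.19). Between the Tl arrays the Tl 5 days array was lower by 3.65-fold (-1.87). By its difference from control on the Tl 2 days array, Ugt2b7 was number 42 from the top of all named probe sets. In humans the gene of this name glucuronidates morphine, and the substrates of the rat enzyme are not given in the sources used here.

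Ugt2b35, the direct neighbour of Ugt2b7 on chromosome 14, had log2 values of 12.00 on the Tl 5 days array, 13.37 on the Tl 2 days array and 11.67 on the control array. The Tl 2 days array was 3.25-fold higher than control (1.70), the difference of the Tl 5 days array from control was 0.33, and the Tl 5 days array was 2.58-fold lower than the Tl 2 days array (-1.37). Both neighbours thus had their highest value on the Tl 2 days array. The other 5 measured genes of family 2 (Ugt2a3, Ugt2b, Ugt2b1, Ugt2b10 and Ugt2b37), which also lie on chromosome 14, were dim on all arrays, and the neighbour of Ugt2b7 on the other side, Ugt2b7l1, is not analysed here. Whether the probe sets of Ugt2b7 and Ugt2b35 measure each other's transcripts was not tested.

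The windows before the starts of both genes are shown because the genes lie side by side and share part of their upstream sequence (RefSeq, GRCr8, plus strand, chr14:21251285-21251534 for Ugt2b7 and chr14:21208191-21208440 for Ugt2b35). In a global alignment 71.2% of the 250 bases were identical, whereas the same alignment gave 57.6% for the neighbours Gstm1 and Gstm2, 58.8% for the neighbours Gstp1 and Gstp3, 59.2% for Gstm1 and Gstp1 and 54.8% for Ugt2b7 and Sult1a1, pairs of different classes. No other pair of family 2 UGTs was aligned, so whether this identity is particular to Ugt2b7 and Ugt2b35 within the family is not known. Capitals mark the longest run that both windows hold, of 25 bases, from -90 to -66 in Ugt2b7 and from -87 to -63 in Ugt2b35. The run is not particular to this pair: on either strand it was in 7 of all 33469 windows, 4 of them of members, and the other two members that hold it, Ugt2b and Ugt2b37, were dim on all arrays.
Ugt2b7: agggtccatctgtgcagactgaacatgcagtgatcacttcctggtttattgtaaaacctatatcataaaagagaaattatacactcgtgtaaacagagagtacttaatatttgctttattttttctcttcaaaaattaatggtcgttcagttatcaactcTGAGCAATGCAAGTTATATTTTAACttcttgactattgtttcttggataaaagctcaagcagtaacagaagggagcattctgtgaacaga
Ugt2b35: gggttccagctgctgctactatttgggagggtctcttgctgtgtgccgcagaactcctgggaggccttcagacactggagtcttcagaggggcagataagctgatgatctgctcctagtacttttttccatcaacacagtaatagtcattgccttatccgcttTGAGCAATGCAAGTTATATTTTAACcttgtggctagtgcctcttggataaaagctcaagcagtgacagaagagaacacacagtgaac
None of the 3 motifs searched was in either window. Ugt8, which makes galactosylceramide and thus serves lipid synthesis rather than detoxication, had 8.05 on the Tl 5 days array, 7.97 on the Tl 2 days array and 8.70 on the control array, with differences from control of -0.64 and -0.72.

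Among the sulfotransferases, Sult1a1, the enzyme for small phenols, had log2 values of 11.60 on the Tl 5 days array, 8.81 on the Tl 2 days array and 9.17 on the control array. The Tl 5 days array was 5.39-fold higher than control (2.43), while the difference of the Tl 2 days array from control was -0.36. Between the Tl arrays the Tl 5 days array was 6.92-fold higher (2.79), which does not involve the control array, and Sult1a1 was number 18 from the top of all named probe sets in this comparison. Sult1b1, which acts on thyroid hormones, had 11.41, 11.57 and 11.70 on the Tl 5 days, Tl 2 days and control arrays, with differences from control of -0.28 and -0.13. Sult1c3 was dim on all arrays with 4.67, 3.98 and 5.46, and its difference of -1.48 between Tl 2 days and control is counted among the 4 lower members although it lies between dim values. The estrogen sulfotransferase Sult1e1, Sult1d1, and all 7 members of the families 2, 4, 5 and 6 (Sult2a1, Sult2a2, Sult2a6, Sult2b1, Sult4a1, Sult5a1 and Sult6b1) were also dim on all arrays. Of these, the cholesterol sulfotransferase Sult2b1 had 6.29 on both Tl arrays and 6.42 on the control array, and Sult2a2 had 4.88 on both Tl arrays and 5.54 on the control array.

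Of the remaining members, 10 were above the dim limit on at least 1 array and within 2-fold in every comparison, with differences from control between -0.64 and 0.25 on the Tl 5 days array and between -0.75 and 0 on the Tl 2 days array. The 23 members dim on all arrays had differences from control between -0.79 and 0.76 on the Tl 5 days array and between -1.48 and 0.77 on the Tl 2 days array. Exactly the same value on all 3 arrays was listed for 4 members (Gstm3, Gstm5, Sult5a1 and Sult6b1), all of them dim.

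**Figure D3:**
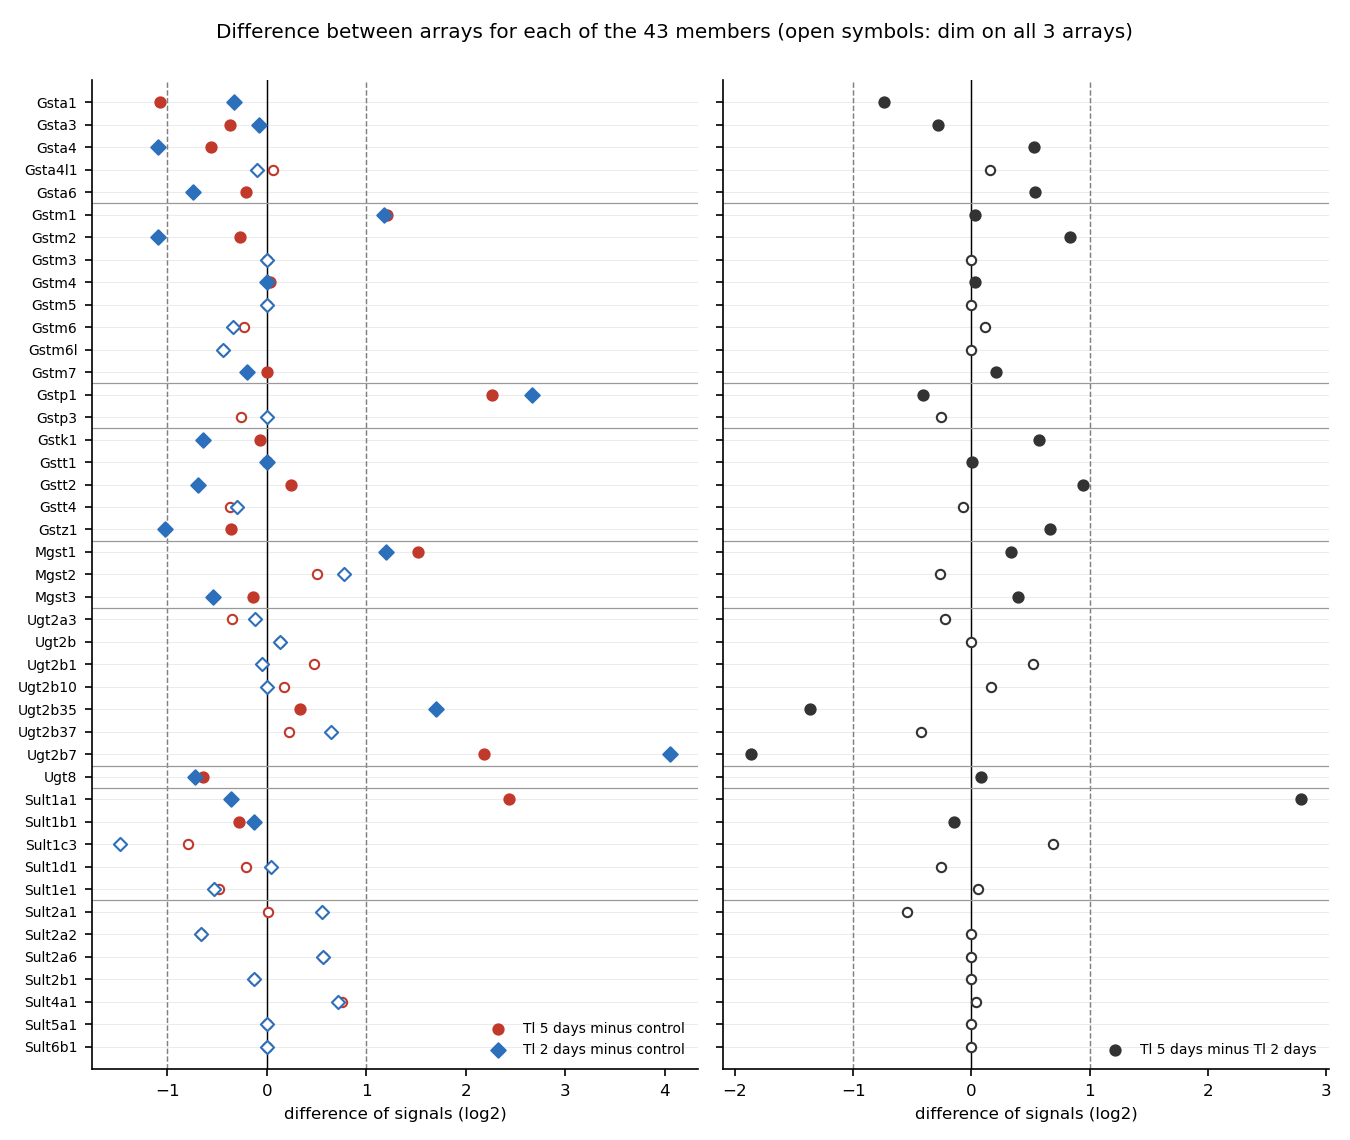
Difference of log2 signals for each of the 43 members, in the order of the enzyme classes (horizontal lines part the classes). The left panel shows Tl 5 days minus control (circles) and Tl 2 days minus control (diamonds), the right panel Tl 5 days minus Tl 2 days; open symbols are the 23 members dim on all arrays, dashed lines mark 2-fold, a diamond can cover a circle of the same value, and there is 1 array per group and no error.

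Genes around the conjugating enzymes were described from lists, one for each process. For scale, 5.38% of all named probe sets were over 2-fold higher and 4.86% lower than control at 5 days, and 6.03% and 4.64% at 2 days. Among named probe sets not dim on at least 1 of the arrays compared, the shares were 8.95% and 7.51%, and 9.62% and 7.13%. The lists were chosen with earlier results of these data known, so their counts are not results in themselves. In the list of glutathione supply and the mercapturate pathway 23 of 24 genes were measured. On the Tl 5 days array 1 of them was over 2-fold higher than control and 9 were lower, with a median difference of -0.21. On the Tl 2 days array 1 was higher and 8 were lower, with a median of -0.43. The gene that was higher was Slc7a11, the cystine carrier, with log2 values of 7.79 on the Tl 5 days array, 7.89 on the Tl 2 days array and 5.00 on the control array, where it was dim. Each gene of glutathione synthesis was lower than control on both Tl arrays. Gss, glutathione synthetase, had 12.21, 13.85 and 15.69 on the Tl 5 days, Tl 2 days and control arrays (differences of -3.49 and -1.84). Gclm and Gclc, the subunits of the enzyme that makes gamma-glutamylcysteine, differed by -1.73 and -0.71 and by -1.21 and -0.43. Their control values, 19.21 and 19.63, lay near the highest value of each array, 19.93. Gsr, which reduces glutathione disulfide, differed by 0.16 and 0.23.

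Several other genes of the list of glutathione supply and the mercapturate pathway were over 2-fold lower than control on at least 1 Tl array. The listed gene that was not measured was Nat8. Anpep, aminopeptidase N of the brush border, had log2 values of 14.08 on the Tl 5 days array, 15.09 on the Tl 2 days array and 17.51 on the control array (differences of -3.43 and -2.42), and Dpep1, the brush border dipeptidase, had 8.36, 7.87 and 9.54 (differences of -1.19 and -1.68). Ggt1, which removes the glutamyl residue, differed by -0.54 and -0.43. Ggct, which releases oxoproline from glutamyl peptides (-2.11 and -1.23), the cytosolic dipeptidase Cndp2 (-1.13 and -0.87), the glyoxalase Hagh (-1.13 and -1.24) and the aminoacylase Acy1 (-1.03 and -1.49) were past 2-fold on at least 1 Tl array. Acy3, an acylase that deacetylates mercapturic acids, was 16.90 on the Tl 5 days array, 14.45 on the Tl 2 days array and 16.18 on the control array, and Oplah, which returns oxoproline to glutamate, was 13.35, 11.58 and 12.78. Both were over 2-fold below control on the Tl 2 days array (differences of -1.74 and -1.20). On the Tl 5 days array both were within 2-fold of control (0.71 and 0.58).

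In the list of cofactor supply for glucuronidation and sulfation 13 of 15 genes were measured, with 3 over 2-fold higher and 2 lower than control on the Tl 5 days array and also 3 and 2 on the Tl 2 days array. The medians were -0.16 and 0. The listed genes that were not measured were Papss1 and Slc35b3. Ugdh, which makes UDP-glucuronic acid, had log2 values of 13.11 on the Tl 5 days array, 13.51 on the Tl 2 days array and 11.76 on the control array, and was higher than control by 2.55-fold and 3.37-fold. Papss2, which makes PAPS, had 10.55, 9.01 and 11.69 on these arrays (differences of -1.14 and -2.67), and Bpnt1, which degrades the used cofactor, differed by -1.01 and -1.08. The sulfate carrier of the brush border, Slc13a1, had 15.78, 17.53 and 15.23 (differences of 0.55 and 2.30), the basolateral carrier Slc26a1 differed by 1.24 and 0.83, and Slc35b1, a nucleotide carrier of the endoplasmic reticulum, differed by 1.20 and 1.10.

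Of 21 measured genes among 26 other conjugating and hydrolysing enzymes, 5 were over 2-fold higher and 4 lower than control on the Tl 5 days array, and 3 were higher and 5 lower on the Tl 2 days array, with medians of 0 and -0.47. Hnmt, histamine N-methyltransferase, had log2 values of 10.98 on the Tl 5 days array, 13.94 on the Tl 2 days array and 17.75 on the control array, differences of -6.77 and -3.81. Both epoxide hydrolases were higher, with Ephx1, the microsomal form, at 13.58, 13.67 and 11.89 (differences of 1.68 and 1.77) and Ephx2, the soluble form, at 10.32, 9.32 and 8.30 (2.03 and 1.03). Nqo1, a quinone reductase, was 6.49 on the Tl 5 days array, 7.88 on the Tl 2 days array and 5.40 on the control array. It was dim on the Tl 5 days and control arrays, whereas its relative Nqo2 differed by -0.93 and -1.05. Lower values were those of the acyl-CoA synthetases Acsm3 (-2.60 and -0.80), Acsm5 (-1.01 and -1.43) and Acsm1 (-0.63 and -1.08), of which relatives prepare acids for conjugation with glycine, and of Inmt (-2.51 and -1.39), a methyltransferase that was dim on both Tl arrays. The esterase Ces2c (1.55 and 0.86) and the lysosomal sulfatase Arsb (1.51 and 0.85) were past 2-fold on the Tl 5 days array.

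Among regulators of these genes and genes that report their activity, 19 of 21 were measured, and 5 were over 2-fold higher and 1 lower than control on each Tl array. Nfe2l2, which encodes Nrf2, had log2 values of 12.76 on the Tl 5 days array, 12.10 on the Tl 2 days array and 11.12 on the control array (differences of 1.64 and 0.98), while its inhibitor Keap1 differed by -0.04 and 0.17. Srxn1, which repairs peroxiredoxins, was higher by 3.25 and 4.67, with 10.25, 11.67 and 7.00 on the Tl 5 days, Tl 2 days and control arrays. Hmox1, heme oxygenase, was 7.15, 9.53 and 5.84 (dim on the control array), and Txnrd1, thioredoxin reductase, was 12.46, 13.40 and 12.04. Both had their highest value on the Tl 2 days array, as did Bach1, a repressor of Hmox1, with differences of 0.58 and 1.13. Maff, a partner of Nrf2, differed by 1.38 and 0.79 and was dim on the Tl 2 days and control arrays. Its relatives Mafg (0 and 0.30) and Mafk (0 and 0) were within 2-fold. Cyp1b1 was higher by 2.55 and 4.07 but was dim on the Tl 5 days and control arrays, and the other genes of the aryl hydrocarbon receptor, Ahr (-0.47 and -0.61) and Arnt (-0.14 and -0.14), were within 2-fold. Cyp1a1, the 1 gene over 2-fold lower on the Tl 5 days array (-1.22), was dim on all arrays, and Ppara, the 1 gene lower on the Tl 2 days array (-1.43), was at -0.25 on the Tl 5 days array. The liver and tubule factor Hnf4a differed by -0.57 and -0.84.

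All 7 conjugate exporters listed were measured, and 1 was over 2-fold higher and 1 lower than control on each Tl array. Abcc2 (Mrp2), which exports glutathione and glucuronide conjugates at the brush border, had log2 values of 15.39 on the Tl 5 days array, 13.58 on the Tl 2 days array and 9.90 on the control array, which were 44.8-fold and 12.8-fold higher than control. Abcg2, which exports sulfate conjugates and urate, had 12.79, 12.35 and 14.27 on the same arrays, with differences of -1.48 and -1.92. Abcc1, Abcc3, Abcc4, Abcc5 and Abcc6 were within 2-fold of control on both Tl arrays.

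**Figure D4:**
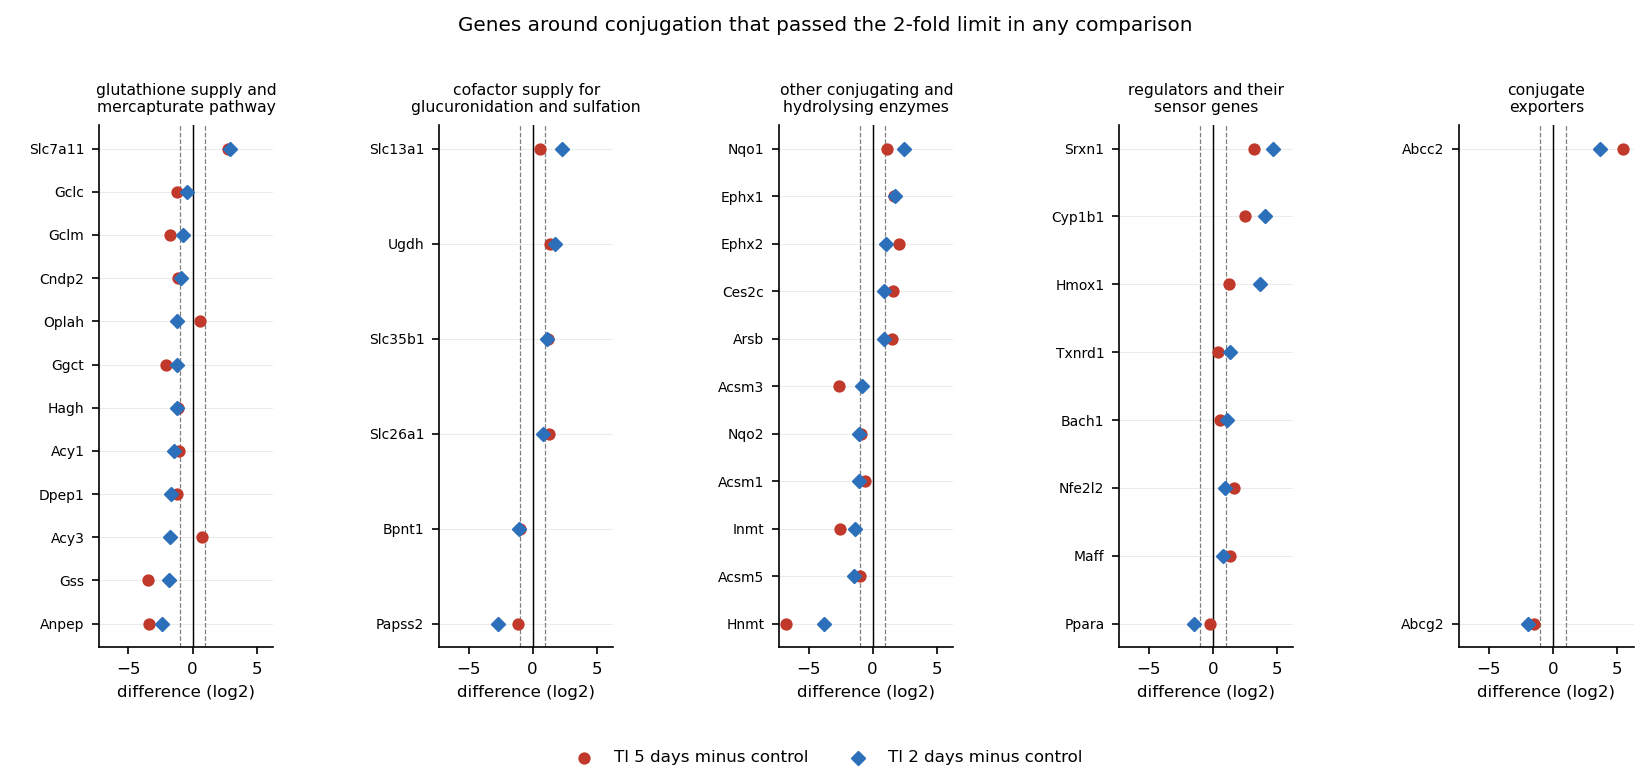
Difference of log2 signals from the control array for the genes of the 5 lists around conjugation that passed the 2-fold limit in any of the 3 comparisons with the higher value not dim. Circles are Tl 5 days minus control, diamonds Tl 2 days minus control, and dashed lines mark 2-fold; Gss and Anpep lie to the left of the limit at both times and Slc7a11, Ugdh, Ephx1, Srxn1 and Abcc2 to the right.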

How the data were processed

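Total RNA of rat kidney was hybridized to 3 Clariom S arrays. The authors deposited a log2 signal for every probe set of every array. The methods name Transcriptome Analysis Console without a version, and the summarization and normalization are not given in the sources used here. The base of the logarithm was taken as 2 because the folds that the study's text gives are near powers of 2 with the column differences as exponents. Groups were taken from the sample titles.

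Of 24834 probe sets, 15049 had 1 gene symbol in the platform annotation, 0 had several and 9785 were not named here. All 43 members were found in RefSeq (GRCr8) by gene ID under the same symbol. Differences of log2 values were computed between arrays, with a limit of 2-fold, which is the limit used by the study. No p-value was computed, since each group has 1 array. Values under the ERCC 95th percentile were called dim. The computation was tested on simulated arrays with known differences.

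The members and lists were chosen with earlier results of these data known. Values on all arrays are given for members over 2-fold different in any comparison with the higher value not dim, and for the 2 members of highest control value in each class. Genes of the lists are named by the same limit, and those outside this rule that were added for context (Gsr, Ggt1, Keap1, Mafg, Mafk, Ahr, Arnt, Cyp1a1, Hnf4a and the Abcc genes) were chosen after their values were seen. Tried as alternatives were quantile normalization, centring on the median of the named probe sets, a floor at the ERCC percentile, a filter at the 40th percentile of mean signal, averaging of probe sets of 1 gene, and limits of 1.5-fold and 3-fold. Promoter windows came from RefSeq (GRCr8) and were cut to the 250 bases before the start. Python 3.11.15, numpy 2.4.6, pandas 2.3.3, Biopython 1.88 and matplotlib 3.10.9 were used.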

Additional observations from a re-analysis of the deposited data

Results flagged for a closer look

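Among the 43 members and the genes of the 5 lists around conjugation, marker genes of cell types not included, 3 had differences from control of opposite signs on the Tl 5 days and Tl 2 days arrays while these arrays differed from each other by more than 2-fold, with the higher value not dim. Sult1a1 differed from control by 2.43 at 5 days and by -0.36 at 2 days, and the Tl 5 days array was 2.79 above the Tl 2 days array. Acy3 differed from control by 0.71 at 5 days and by -1.74 at 2 days, with 2.45 between the Tl arrays. Oplah differed by 0.58 and -1.20, with 1.78 between the Tl arrays. The 5 lists held 23, 13, 21, 19 and 7 measured genes, and the share of all named probe sets that meet this rule is not given here. For each of the 3 genes 1 difference from control was within 2-fold, for Sult1a1 at 2 days and for Acy3 and Oplah at 5 days. It was smaller than the standard deviation of the negative control differences, 0.86 at 2 days and 0.88 at 5 days. That deviation is taken over probe sets and does not measure the spread between rats, which is not known. Opposite signs are therefore not shown. With 1 array at each time, none of these differences between the times was tested.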

How the results depend on the processing

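No paired analysis was possible because each group has 1 array. A difference or median was counted as moved past 0.58 on the log2 scale, and a count past 1.5 times. Quantile normalization moved no count and no class median in this sense. Averaging the probe sets of 1 gene could not change the members, since each has 1 probe set. Centring shifted all differences by -0.05 (Tl 5 days and control), -0.12 (Tl 2 days and control) and 0.07 (Tl 5 days and Tl 2 days). It raised the members over 2-fold higher at 5 days than at 2 days to 2, by Gstt2, where 2.55% of all named probe sets were higher. For other limits, the counts of the 43 members are followed in brackets by the shares of all named probe sets. With a limit of 1.5-fold, 4 were lower at 5 days than in control (9.97%). At 2 days 8 were higher and 9 lower than in control (12% and 10.7%), and 5 were higher at 5 days than at 2 days (6.37%). With 3-fold, 3 were higher and 0 lower at 5 days than in control (2.18% and 1.92%). At 2 days 3 were higher and 0 lower than in control (2.69% and 1.71%), and 1 was lower at 5 days than at 2 days (1.35%). The filter on low signal, which leaves fewer members in a class, gave medians of 2.26 and 2.67 for the pi class at 5 and 2 days against control. For family 2 of the UGTs it gave 1.26 and 2.88 and, between the Tl groups, -1.62. For family 1 of the sulfotransferases it gave 1.07 for Tl 5 days against control and 1.32 between the Tl groups. With the floor the median of Mgst genes between Tl 2 days and control was 0. All 17 differences of members past 2-fold with the higher value not dim kept their sign and stayed past 2-fold under quantile normalization and centring. The floor could not change these differences, since none of the members concerned was dim on any array. The difference of Sult1c3 (Tl 2 days and control), which lies between dim values, was lost with the floor and with the filter, which each left 3 members over 2-fold lower at 2 days. Of all named probe sets kept, 3.44% were over 2-fold lower at 2 days with the floor and 6.39% with the filter. Depth is not defined for arrays, and 23 of 43 members lay below the dim limit throughout.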
